A study of Homo sapiens with 2 samples.

Results

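The genes described here encode the actin cytoskeleton and its transcriptional readout: serum response factor (SRF) and its target genes, YAP, TAZ, TEAD1 and the target genes of YAP, and core actin regulators. The set holds 39 genes, of which 36 are among the 19775 genes of the array with a probe set of 1 gene symbol. They were chosen by gene symbol, from knowledge of these pathways and with the differences between these same arrays in view, so every value below is a description and none is a test. Of the 39 genes, 20 were placed with SRF and its targets, 10 with core actin regulators and filament proteins, 6 with YAP targets and 3 with YAP1, WWTR1 (TAZ) and TEAD1. Of the 36, 35 were detected, meaning that the brightest probe set had a mean log2 intensity at or above the 40th percentile of the table (an intensity of 63.7). FLNA and TPM3 were not analysed here, ACTG1 was read only by probe sets shared with ACTB, and ANKRD1 lay below the detection intensity.

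Total RNA of RKO, an established line of human colon cancer cells, was read on 2 Affymetrix arrays. One culture was infected with a retrovirus for a luciferase hairpin as control (sh-Luci). The other carried a hairpin, numbered 1 by the submitters, against BCLAF1-L, a form of the nuclear protein BCLAF1 (sh-BCLAF1-L). In both, the medium was changed 24 h after infection and infected cells were selected with puromycin at 2 µg/ml for 72 to 96 h, and the labels call them stable lines; no untreated cells or other BCLAF1 hairpin are among the arrays. The question is how transcript levels compare between the cultures. Each group held 1 array, so no spread between cultures and no p-value was computed. An effect of lower BCLAF1, an effect of the hairpin and a difference between the arrays cannot be told apart. In bulk RNA, fewer cells that express a gene and less RNA per cell cannot be told apart either.

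SRF is a transcription factor that binds CArG boxes. Its cofactors of the MRTF family are held in the cytoplasm by monomeric actin and move to the nucleus when actin is assembled into filaments, so actin assembly and transcription of actin-related genes are coupled. YAP and TAZ are co-activators without a DNA-binding domain of their own that act through TEAD factors; the Hippo kinases LATS1 and LATS2 keep them out of the nucleus, and tension on the actin network favours their nuclear form. Genes such as CCN2 and CCN1 (named CTGF and CYR61 in older annotation) respond to both systems.

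The targeted gene was checked first. The brightest BCLAF1 probe set went from 2505 (control) to 945 (knockdown), 2.65-fold lower, and its 6 probe sets were lower by 1.43-fold to 2.96-fold, with 1.43-fold on the pair without an _s_at name. Differences are given as log2(intensity + 1) on the knockdown array minus the control array. Among probe sets of 1 gene the pooled SD of these differences was 0.16, in the 6752 genes with several detected probe sets. This SD is used below as a measure of technical error; it includes neither a shift between the arrays nor the spread between cultures. The median difference of all 14507 detected genes was 0.019. The 18 biotin spike-in probe sets were higher on the knockdown array by 0.05 to 0.33 (median 0.20), larger than that SD at the median, and the part of such a shift in the differences below was not tested.

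Most of these genes lay slightly below 0 on their brightest probe set, and TAGLN, CNN1, ENAH, CCN2 and MYL9 had the lowest values. Of the 35 detected members, 25 differed by less than 0, where 45.0% of all detected genes did, and their median was -0.11 (-0.06 with the median over the probe sets of each gene). At 1.5-fold, 2 members were lower, TAGLN and CNN1, where 0.200% of detected genes were lower by that much. No member was 1.5-fold higher, where 0.434% of detected genes were. ENAH and CCN2 lay just inside 1.5-fold, at 1.49-fold lower each, and after subtraction of the overall median difference or of a loess curve they passed it, giving 4 lower members. At a looser threshold of 0.32 on the log2 scale, 6 members were lower (TAGLN, CNN1, ENAH, CCN2, MYL9 and PFN1) and 1, PDLIM7, was higher, where 2.21% of detected genes were lower and 4.16% higher. No member passed 2-fold, where 0.00689% of detected genes were lower and 0.0689% higher. These shares describe the members, which were picked with the differences known, and nothing further is read from them. Counted by probe set, 58 of the 88 detected ones had a lower intensity in the knockdown, where 46.1% of the detected probe sets of all detected genes did.

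**Figure D1:**
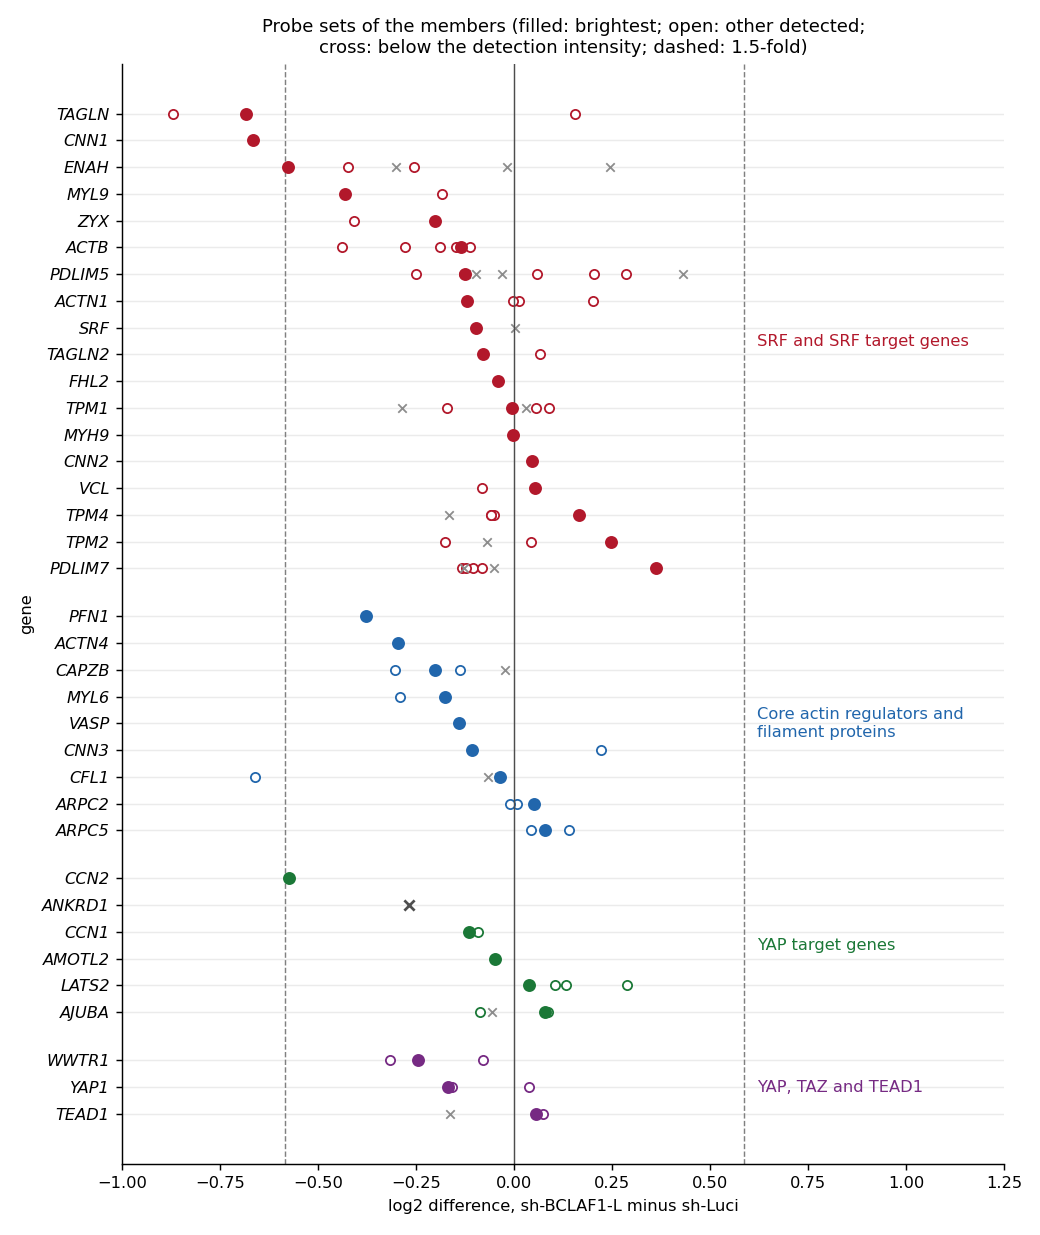
Log2 difference (knockdown minus control, horizontal axis) of each probe set of the 36 members with a probe set of 1 symbol, 1 row per gene, grouped by role. Filled points are the brightest probe set of a detected gene, open points its other detected probe sets and crosses probe sets below the detection intensity; the dashed lines mark 1.5-fold. TAGLN and CNN1 lie past the lower line on their brightest probe set, ENAH and CCN2 at its inner side, and most others within 0.3 of 0.

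TAGLN and CNN1, SRF targets typical of smooth muscle, had the lowest values of all members. TAGLN (transgelin, an actin-bundling protein and classical SRF target) went from 238 (control) to 147 (knockdown), 1.61-fold lower, and stood at rank 14 from the lowest of 14507 detected genes. Its second probe set read 176 and 95.5, a difference of -0.87. The third probe set, the only one of the 3 whose name marks no cross-matching transcripts, read 79.9 and 89.0, a difference of 0.15. The lower value of TAGLN therefore rests on 2 of 3 probe sets, and leaving out probe sets named for cross-matching turns its direction. The third was also the dimmest, near the detection intensity of 63.7 and the medians of the control (82.7) and knockdown (84.5) arrays. For BCLAF1, probe sets with _s_at names were 1.88-fold to 2.96-fold lower and the others 1.43-fold. Such a name alone therefore does not tell whether another gene is read.

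CNN1 (calponin 1, which binds actin and restrains myosin in smooth muscle) read 183 and 115 on its only probe set. This was 1.59-fold lower, a difference of -0.67, at rank 15 from the lowest. MYL9, a regulatory light chain of smooth muscle and non-muscle myosin II, read 127 and 94.0 on its brightest probe set and 104 and 90.9 on the other. Both were lower, by -0.43 and -0.19, so MYL9 was lower by 1.35-fold at its brightest. These intensities lie in the lower part of the range above 63.7. Background remaining in such probe sets would compress their differences, and reaching 63.7 does not show that a gene is expressed. The detected blood and endothelial markers read in a similar range: HBB 196 and 226, CD3E 135 and 111, VWF 177 and 194, and PECAM1 119 and 119. Dim genes also varied more. The SD of the differences was 0.20 among the 4836 dimmest detected genes, which include CNN1, MYL9 and CCN2, and 0.15 among the 4836 brightest. Of the dimmest genes 0.289% were 1.5-fold lower, and of the brightest 0.145%. The pooled SD of 0.16 between probe sets is not split by brightness.

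ENAH (Mena, which extends actin filaments at their growing ends) was lower on every detected probe set. Its brightest probe set read 620 and 416, a difference of -0.58, at rank 33 from the lowest. The second read 222 and 165 and the third 199 and 167, differences of -0.42 and -0.26. Its 3 probe sets below the detection intensity differed by -0.30, -0.02 and 0.24. The median difference of its 6 probe sets was -0.28.

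**Figure D2:**
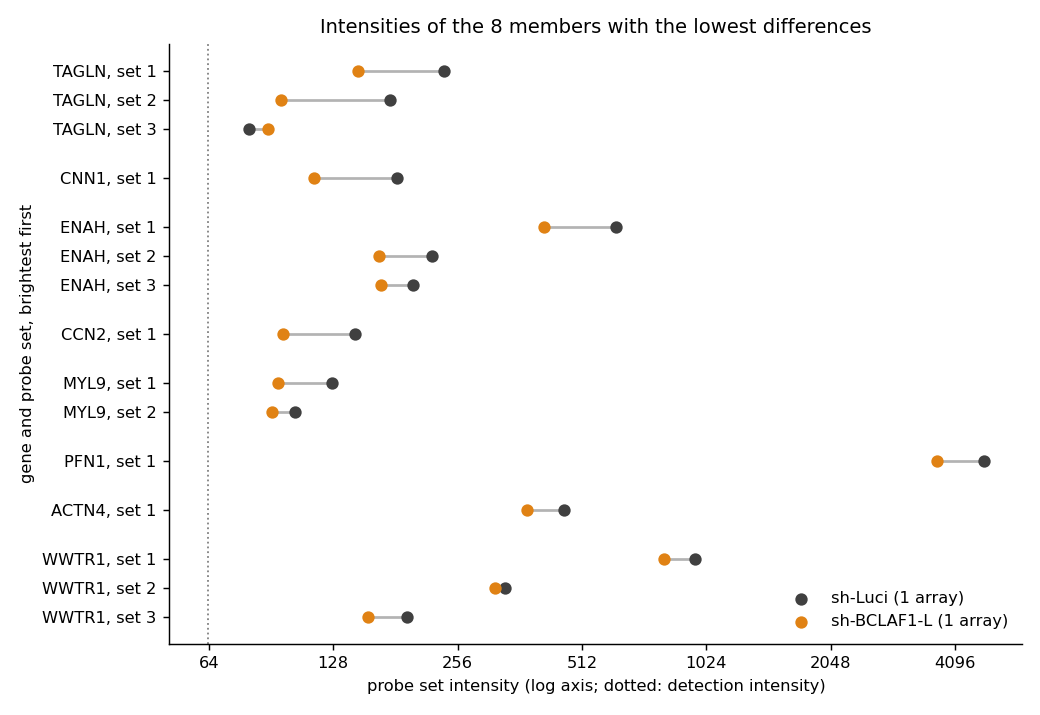
Intensity (horizontal log axis) of each detected probe set of the 8 detected members with the lowest differences, on the control array (dark) and the knockdown array (orange), 1 array each; the dotted line is the detection intensity of 63.7. The knockdown value lies to the left of the control value on every probe set shown except the third of TAGLN, which read 79.9 and 89.0.

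SRF itself and most of its other targets differed little. Of the 18 detected genes of the SRF group, 13 were below 0, where 45.0% of all detected genes were, and the median was -0.09. SRF read 317 and 296, a difference of -0.10, which is less than the SD between probe sets of 1 gene. FHL2, a LIM-domain cofactor of SRF, read 4824 and 4685, a difference of -0.04. MYH9, the heavy chain of non-muscle myosin IIA, read 233 and 233. VCL (vinculin, which joins integrin adhesions to actin) differed by 0.05 and -0.08 on its 2 probe sets. CNN2, the calponin of non-muscle cells, read 1218 and 1257, and TAGLN2, the broadly expressed transgelin, differed by -0.08 and 0.06.

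Zyxin (ZYX), a LIM protein of focal adhesions and stress fibres, was lower on both probe sets. They read 1904 and 1654 (-0.20) and 588 and 442 (-0.41). ACTN1, the alpha-actinin that cross-links filaments in adhesions, read 3287 and 3022 on its brightest probe set, and its 4 probe sets ranged from -0.12 to 0.20. PDLIM5, an adaptor with PDZ and LIM domains, had 6 detected probe sets, of which 3 were lower and 3 higher, from -0.25 to 0.29.

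The tropomyosins, which wrap along actin filaments, went in both directions. TPM1 read 647 and 644, and its 4 detected probe sets ranged from -0.17 to 0.09. TPM4 read 1237 and 1385 on its brightest probe set (0.16), but its 3 other detected probe sets were all slightly lower, down to -0.06. TPM2 read 90.7 and 108 (0.25), with 0.04 and -0.18 on the others. Neither gene was therefore higher on all of its probe sets. PDLIM7 (enigma, a tropomyosin-binding adaptor) was the highest member on its brightest probe set, at 108 and 139 (0.36), whereas the 4 others above detection lay between -0.13 and -0.08. The median difference of its 7 probe sets was -0.11.

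Beta-actin (ACTB) was lower on all 6 of its probe sets. The brightest read 9464 and 8615, a difference of -0.14, and the next pair differed by -0.11 and -0.15. The control probe sets placed along the transcript read 7306 and 6021 at the 3' end (-0.28), 5932 and 5204 in the middle (-0.19) and 2143 and 1580 at the 5' end (-0.44). The 3' to 5' ratio of control probe sets, which rises with RNA degradation or incomplete labelling, was 3.41 in the control and 3.81 in the knockdown for ACTB and 1.38 and 1.49 for GAPDH. The part of RNA integrity and labelling in the lower ACTB values was not tested. The 9 probe sets assigned to ACTG1 (gamma-actin) and ACTB together differed by only -0.05 to 0.02 (median -0.0023), 5 of them below 0. Their control intensities ran from 9691 to 13134, near the upper end of that array (17349).

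SRF binding motifs were looked up in the promoters of the members. The RefSeq promoter table of assembly GRCh38.p14 (250 bases before and 50 after each gene start) held 53 promoters of 34 of the 39 members. The CArG box was found on either strand in promoters of 7 members, all of them in the SRF group (SRF, CNN2, TPM4, FHL2, ACTN1, ACTG1 and FLNA), out of 17 SRF-group members with a promoter. It was found in 1.29% of all 35116 promoters in the table and in 1.60% of genes. The members of the group were picked as known SRF targets, so this share describes the list and supports nothing. The stretches before the start of 4 of these genes are printed because their transcripts, with a CArG box this close to the start, were among those that differed little: -0.10 for SRF, 0.05 for CNN2, 0.16 for TPM4 and -0.04 for FHL2. Capitals mark the CArG boxes; FHL2 has several starts, and the stretch shown lies before its most upstream ones. SRF carries a pair of them, the first starting at position -30 and the last at -10, counted from -1 at the base before the start.
SRF, chr6:43171219-43171268, plus strand: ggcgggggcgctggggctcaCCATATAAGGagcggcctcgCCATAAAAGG
CNN2, chr19:1026499-1026548, plus strand: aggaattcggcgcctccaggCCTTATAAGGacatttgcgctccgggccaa
TPM4, chr19:16067345-16067394, plus strand: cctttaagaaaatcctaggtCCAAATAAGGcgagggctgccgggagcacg
FHL2, chr2:105438585-105438634, minus strand: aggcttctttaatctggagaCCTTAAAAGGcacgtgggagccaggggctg
No match was found in this window for CNN1 or ENAH, which says only that these letters are not in this stretch. TAGLN, MYL9 and ACTB had no promoter in the RefSeq promoter table and could not be searched.

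Core actin regulators were lower in 7 of 9 detected genes, where 45.0% of all detected genes were lower. Their median was -0.14 and none reached 1.5-fold. PFN1 (profilin 1, which loads ATP-actin onto growing ends) had the lowest value, 4807 in the control and 3697 in the knockdown on its only probe set, 1.30-fold lower. That difference of -0.38 lay below the central 95% of the 4836 brightest detected genes, which ran from -0.27 to 0.31. ACTN4, the other non-muscle alpha-actinin, read 463 and 377 (-0.30), within the central 95% of the 4835 detected genes of middle brightness, from -0.31 to 0.36. CAPZB, a subunit of the protein that caps growing ends, read 1074 and 933 (-0.20) and was lower on all 3 detected probe sets, from -0.31 to -0.14.

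MYL6, the essential light chain of non-muscle myosin II, read 5530 and 4889 (-0.18) and 203 and 166 (-0.29). VASP, a relative of ENAH at growing filament ends, read 249 and 226 (-0.14). Cofilin (CFL1), which severs filaments, read 9130 and 8900 on its brightest probe set, a difference of -0.04. Its second detected probe set read 963 and 609, a difference of -0.66, so probe sets of this gene disagreed by far more than the SD of 0.16. No source used here says which CFL1 transcripts each of them reads. CNN3, the acidic calponin, was also split, at -0.11 and 0.22.

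The genes above 0 were ARPC2 and ARPC5, subunits of the Arp2/3 complex, which nucleates branched actin. ARPC2 read 3580 and 3706 (0.05), and its 3 probe sets ranged from -0.01 to 0.05. ARPC5 read 2707 and 2856 (0.08) and was higher on all 3 probe sets, by 0.04 to 0.14. All of these differences are smaller than the SD between probe sets of 1 gene. Other subunits, named after their values were seen, went both ways, with ARPC3 at -0.25, ARPC4 at -0.08, ARPC5L at -0.08, ARPC1B at 0.00012, ARPC1A at 0.05 and ACTR3 at 0.06.

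**Figure D3:**
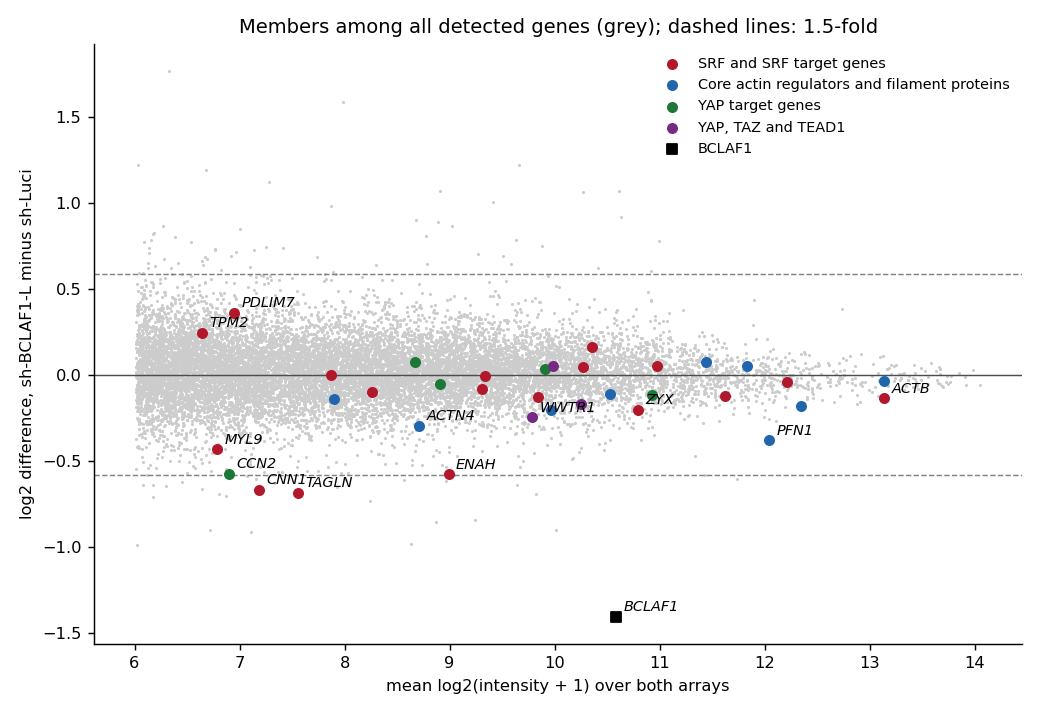
Log2 difference (knockdown minus control, vertical axis) against the mean log2 intensity over both arrays (horizontal axis) for all 14507 detected genes (grey), with the 35 detected members coloured by role and BCLAF1 as a black square; dashed lines mark 1.5-fold. TAGLN, CNN1, CCN2, MYL9 and ENAH lie at the lower edge of the cloud, and PFN1 at its lower edge among bright genes, while most members lie inside it.

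Among YAP target genes, CCN2 had the lowest value. CCN2, a secreted matricellular protein and a common readout of YAP activity, went from 145 (control) to 96.8 (knockdown) on its only probe set. This was 1.49-fold lower, a difference of -0.57, at rank 34 from the lowest. CCN1, its paralogue, read 2024 and 1868 (-0.12) and 1129 and 1059 (-0.09), a smaller difference in the same direction on both probe sets. ANKRD1, an ankyrin-repeat protein of muscle, read 20.5 and 16.9, both below the detection intensity, so no change can be read from it.

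The YAP targets that feed back on the Hippo pathway differed by less than 0.1 on their brightest probe sets. AMOTL2, an angiomotin that binds YAP, read 488 and 472 (-0.05). LATS2, the kinase that phosphorylates YAP, read 946 and 970 (0.04), and its 4 probe sets were all higher, by 0.04 to 0.29. AJUBA, a LIM protein that inhibits LATS kinases, read 395 and 416 (0.08), with its 3 detected probe sets from -0.09 to 0.09. The median of the 5 detected YAP targets was -0.05.

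YAP1 and WWTR1 were both slightly lower. YAP1 read 1293 and 1149 (-0.17) and 980 and 878 (-0.16) on its brighter probe sets, and 194 and 199 (0.04) on the third. WWTR1, which encodes TAZ, read 962 and 811 (-0.25), 333 and 315 (-0.08) and 193 and 155 (-0.32), so it was lower on all 3. TEAD1, their DNA-binding partner, read 990 and 1028 (0.05) and 386 and 406 (0.07). mRNA levels do not show where YAP and TAZ are in the cell, which is the regulated step.

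The TEAD core GGAATG, searched on both strands, was found in promoters of all 5 YAP target genes in the table (CCN2, ANKRD1, AMOTL2, AJUBA and, after the start, LATS2). It is a short motif, present in 14.0% of all promoters and in 16.7% of genes, and these genes were chosen as known YAP targets. The promoters of CCN2 and ANKRD1 held 3 and 2 copies, and both are shown, with the copies in capitals. They were chosen because CCN2 was the only YAP target among the members near 1.5-fold and ANKRD1 was too dim to compare.
CCN2, chr6:131951442-131951561, minus strand: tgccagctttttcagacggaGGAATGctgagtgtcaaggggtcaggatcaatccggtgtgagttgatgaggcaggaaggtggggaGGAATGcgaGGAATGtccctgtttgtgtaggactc
ANKRD1, chr10:90921190-90921327, minus strand: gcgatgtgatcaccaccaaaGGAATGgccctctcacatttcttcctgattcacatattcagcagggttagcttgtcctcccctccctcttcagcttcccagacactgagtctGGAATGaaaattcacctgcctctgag
AMOTL2 and AJUBA, with 1 copy each before a start, differed by -0.05 and 0.08.

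Each of the lowest members was set beside its paralogues on the same pair of arrays. The pairs were chosen after the values were seen, so the gaps are descriptions. The within-gene SD of a gap between 2 single probe sets is 0.22, and it covers no spread between cultures. It is not split by brightness, and dim genes varied more. TAGLN, CNN1, CCN2 and MYL9 were dimmer than the paralogues set beside them, as with CNN1 at 183 and CNN2 at 1218 in the control. ENAH and PFN1 were brighter than theirs. The gap was -0.61 between TAGLN and TAGLN2, -0.71 between CNN1 and CNN2, and -0.56 between CNN1 and CNN3. The gap between CCN2 and CCN1 was -0.46, and the gap from ENAH was -0.43 to VASP and -0.35 to EVL, the third Ena/VASP protein. MYL9 had smaller gaps, of -0.25 to MYL6, -0.33 to MYL12A and -0.30 to MYL12B, and the gap between PFN1 and PFN2 was -0.31. The transgelin gap rests on the brightest probe sets, since on those without a cross-matching name TAGLN differed by 0.15 and TAGLN2 by 0.06.

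**Figure D4:**
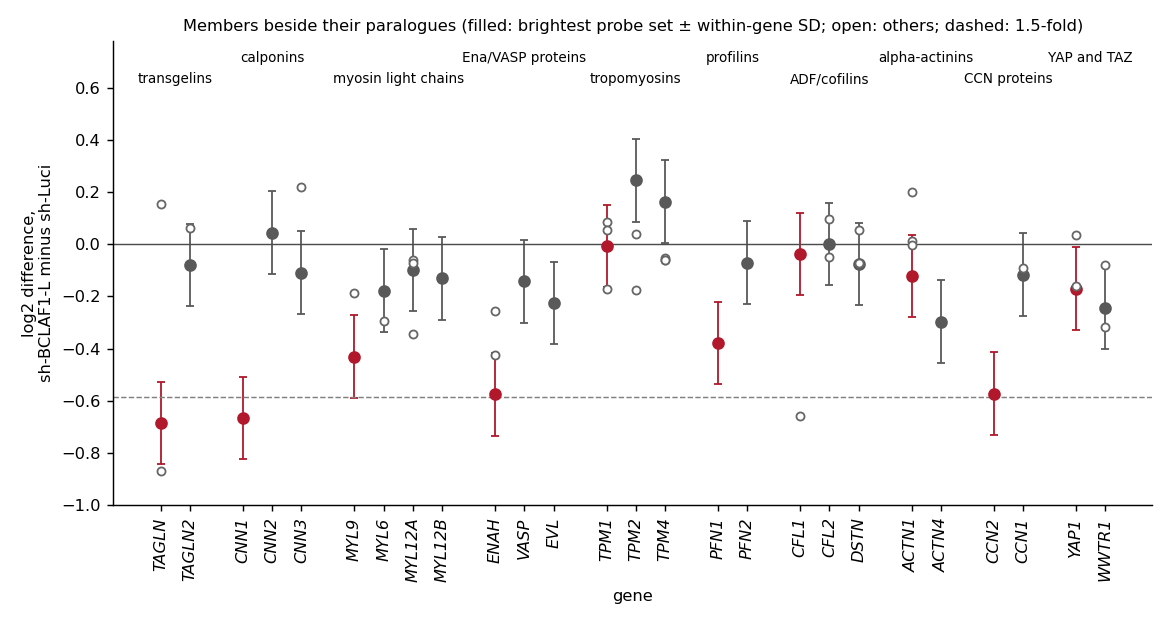
Log2 difference (knockdown minus control, vertical axis) of members and their paralogues, grouped by family; filled points are brightest probe sets with the pooled within-gene SD of 0.16 as error bar, open points other detected probe sets, and the first-named gene of each family is red. TAGLN, CNN1, ENAH and CCN2 sit near or past the dashed 1.5-fold line, and their paralogues lie between -0.23 and 0.05 on the brightest probe set.

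Further genes of these pathways were read in the same way. Their lists were drawn up from general knowledge but with earlier results of these data known, so their counts are descriptions and no independent check. Where 45.0% of all detected genes were below 0, 13 of the 16 detected further MRTF-SRF targets were. These targets had a median of -0.08 and none passed 1.5-fold. The lowest was CALD1 (caldesmon, an actin- and myosin-binding protein) at 1909 and 1543 (-0.31), and the smooth-muscle actin ACTA2 read 137 and 127 (-0.12); both are named after their values were seen. Of the SRF cofactors, MRTFA read 145 and 155 (0.10) and MRTFB 311 and 297 (-0.07). The 8 detected immediate early SRF targets, which respond to a different class of SRF cofactors, had a median of -0.01 with 5 below 0, and EGR1 read 2414 and 2438 (0.01).

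Hippo kinases, adaptors and the other TEADs had a median of 0.03 over 20 detected genes, with none at 1.5-fold. Of these genes, 7 were below 0, where 45.0% of all detected genes were. Among 14 detected further YAP targets, 6 were below 0 and the median was 0.03. Where 0.434% of all detected genes were 1.5-fold higher, 1 of these targets was. This was NT5E (CD73, a surface nucleotidase), which read 196 and 296 (0.59), 97.4 and 260 (1.40) and 89.0 and 112 (0.33) on its detected probe sets. CCN2 and NT5E, both YAP targets, thus differed in opposite directions. The 23 detected genes of further actin assembly and severing proteins had a median of -0.03, with 13 below 0 and none at 1.5-fold.

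**Figure D5:**
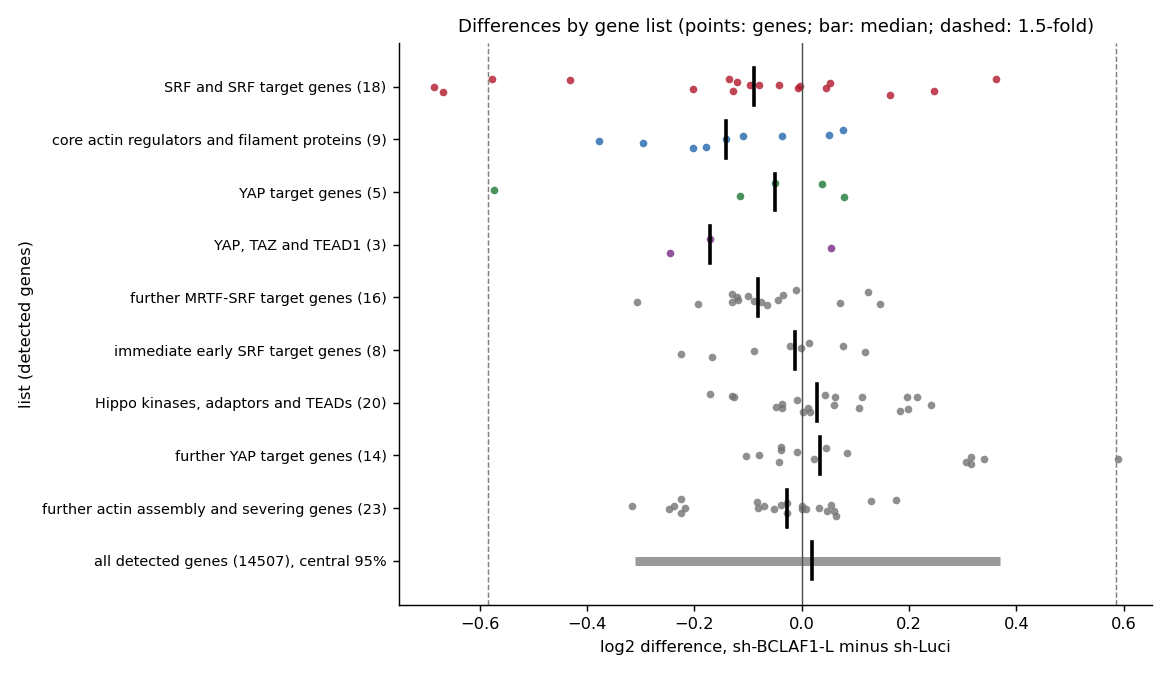
Log2 difference (knockdown minus control, horizontal axis) of each detected gene in the 4 groups of members (coloured) and 5 further pathway lists (grey), with the number of genes in brackets; black bars are medians, the grey band is the central 95% of all detected genes, from -0.31 to 0.37, and the dashed lines mark 1.5-fold. Medians lie between -0.17 and 0.03, and points past the 1.5-fold lines are TAGLN, CNN1 and NT5E.

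Cell identity markers were read beside these genes. Of 9 colon epithelium markers, 6 were detected, 3 of them below 0 (median 0.0033), and their summed intensity was 1867 in the control and 1532 in the knockdown. EPCAM read 477 and 472 (-0.02), KRT18 read 979 and 674 (-0.54) and LGALS4 read 186 and 143 (-0.37). KRT8 read 96.0 and 97.6 (0.02), VIL1 61.1 and 67.5 (0.14) and CDX2 67.4 and 77.3 (0.20), all higher in the knockdown. VIL1 and CDX2 thus lay near the detection intensity of 63.7. KRT20, CDH17 and CDH1 lay below the detection intensity. The brightest probe sets of all 7 smooth muscle markers reached the detection intensity, 4 of them were below 0 (median -0.13), and their summed intensity was 1373 in the control and 1202 in the knockdown. SMTN (smoothelin) differed by -0.37, SYNPO2 by -0.28, LMOD1 by -0.16 (84 and 75) and ACTG2 by -0.13 (76 and 70). DES (desmin) differed by 0.05, MYOCD by 0.19 (75 and 85) and MYH11, the smooth muscle myosin, by 0.21 (81 and 94). The summed intensity of the detected fibroblast markers (4 of 7) was 582 and 637, that of the endothelial markers (2 of 5) 296 and 313, and that of the blood markers (2 of 5 with a probe set) 331 and 337. No marker read 0. Both cultures were of the same established line, RKO, so intensities of smooth muscle, fibroblast, endothelial and blood markers are not read as presence of such cells. The part of cell identity in the lower TAGLN, CNN1 and MYL9 values was not tested.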

How the data were processed

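Total RNA of 1 sh-Luci and 1 sh-BCLAF1-L culture of RKO cells was labelled from 200 ng and hybridised to Affymetrix arrays, per the labels' protocols. The authors deposited linear intensities, 1 per probe set and array, made with RMA, per the submitters' processing notes; no source used here gives the program, version, scaling or genome build. The table held 54675 probe sets, 41097 with 1 gene symbol, 1801 with several and 11777 with none. Symbols were updated through RefSeq identifiers (GRCh38.p14) for 41043 of them.

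Intensities were taken as log2(value + 1), and a gene took its brightest probe set with 1 symbol. The design named this transformation for linear values. Of 19775 genes, 14507 (73.4%) were detected. Named genes are all members, BCLAF1 and listed pathway or marker genes at or past 1.5-fold, at most 4 per list; others are named as chosen after their values were seen, including EGR1, MRTFA, MRTFB, paralogues and cell type markers. Members and lists were chosen with earlier results of these data known. Scripts used Python 3.11.15, pandas 2.3.3 and statsmodels 0.14.6, and recovered known changes in simulated data. The simulated noise was the same at every intensity, so this checks the code only and not the differences reported here. Alternatives were the median over probe sets, leaving out _s_at and _x_at probe sets, no filter, a 60th percentile filter, a pseudocount of 32, median or loess (span 0.3) centring, and thresholds of 0.32 on the log2 scale and of 2-fold. The number of arrays limits the precision.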

Additional observations from a re-analysis of the deposited data

How the results depend on the processing

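No paired analysis was possible because there was a single array for each hairpin. The number of members at least 1.5-fold lower was 2; it was 1 without _s_at and _x_at probe sets, 1 with a pseudocount of 32, 4 after loess, 4 after subtracting the median difference, 0 at 2-fold, and 6 at a threshold of 0.32 on the log2 scale. The number higher was 0, and 1 at the threshold of 0.32. Without _s_at and _x_at probe sets, TAGLN reversed to 0.15; the cause was not tested. BCLAF1, whose alternatives were added after seeing the data, differed by -1.41, by -1.14 with the median over probe sets and by -0.51 without _s_at and _x_at probe sets. The medians of the 4 groups of members moved by less than their technical error (the SD of 0.16 over the square root of the number of genes) under every alternative run. Single members moved by more than the SD of 0.16 in 5 of 35 genes with the median over probe sets and, TAGLN included, in 4 of 28 genes without _s_at and _x_at probe sets, and in none under the other alternatives. CNN1 ranged from -0.69 to -0.55, CCN2 from -0.60 to -0.46, ENAH from -0.60 to -0.28 and PFN1 from -0.40 to -0.37. With no replicate, differences near the SD between probe sets cannot be resolved.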
